A study of Mus musculus with 22 samples.

Results

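Livers of ad libitum (AL)-fed female (XX) and male (XY) mice were compared gene by gene, with autosomal genes alone reported so that gene dosage on the sex chromosomes does not enter the counts. The comparison used 11 of the 22 liver RNA-seq libraries of a study of caloric restriction (CR), namely 5 AL females and 6 AL males, each library from 1 mouse. All mice were wild-type C57BL/6NCrl, an inbred strain, and the AL groups had free access to control diet up to 13 weeks of age. Mice on both diets were fasted for about 8 h before the liver was taken. The remaining 6 female and 5 male libraries came from mice of the same strain and age given 70% of AL intake from 9 weeks of age; they served as a second, separate set of XX and XY livers. Sex was taken from the sample labels. The authors removed chromosome Y genes and Xist from the table, so no transcript of those served here to check it, and in these mice the chromosome complement, the gonads and their hormones, and the stage of the oestrous cycle (not given in the sources used here) cannot be told apart. Values are counts per gene normalised for library size by the authors. Of 16838 genes in the table, 15805 were placed on an autosome and 13381 of these had a mean normalised count of at least 10 over the 22 libraries and were tested.

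Sex differences in rodent liver are set largely by the pituitary. Males secrete growth hormone (GH) in separated pulses and females more steadily, and the hormone acts through its receptor (GHR), the kinase JAK2 and the transcription factor STAT5B, whose sites the repressor BCL6 can also bind. CUX2 and HNF6 (encoded by Onecut1) are further transcription factors of this programme, and its best known outputs are cytochromes P450, sulphotransferases, flavin monooxygenases and, in males, the major urinary proteins that carry pheromones into the urine. Oestrogen and androgen act both on the pituitary and on the liver itself.

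The promoters of 7 genes are shown first because they set out the contrasts described below. Among them are a pair of neighbouring hepcidin genes of which 1 differed between the sexes, the pair of Cyp3a41 copies with the largest female bias, and Sult3a1. A pair of Cyp2b genes had similar sex differences in AL mice, and 1 of them, Cyp2b9, passed the test for a difference between the diets. Each sequence is the 250 bases upstream of the transcription start in RefSeq on GRCm38.p6, 5′ to 3′ on the strand of the gene. Capitals mark TTCNNNGAA, the STAT5 motif, and ATTGAT or its reverse complement ATCAAT, the core shared by HNF6 and CUX2, searched on both strands.
Hamp, chr7:30944030-30944279, minus strand: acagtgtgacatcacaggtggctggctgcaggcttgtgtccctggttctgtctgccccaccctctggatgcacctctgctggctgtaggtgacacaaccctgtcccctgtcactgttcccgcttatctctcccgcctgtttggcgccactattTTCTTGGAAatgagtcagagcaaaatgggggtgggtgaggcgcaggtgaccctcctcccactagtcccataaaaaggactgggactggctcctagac
Hamp2, chr7:30924182-30924431, minus strand: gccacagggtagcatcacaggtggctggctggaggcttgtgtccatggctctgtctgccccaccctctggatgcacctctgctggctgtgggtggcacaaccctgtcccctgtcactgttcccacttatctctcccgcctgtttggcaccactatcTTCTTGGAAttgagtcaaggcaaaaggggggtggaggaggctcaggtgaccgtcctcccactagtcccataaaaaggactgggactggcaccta
Cyp2b9, chr7:26173159-26173408, plus strand: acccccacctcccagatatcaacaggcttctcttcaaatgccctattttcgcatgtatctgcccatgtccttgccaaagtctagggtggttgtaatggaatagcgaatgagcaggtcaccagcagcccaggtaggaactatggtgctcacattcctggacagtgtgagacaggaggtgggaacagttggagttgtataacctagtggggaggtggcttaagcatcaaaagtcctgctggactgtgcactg
Cyp2b13, chr7:26061245-26061494, plus strand: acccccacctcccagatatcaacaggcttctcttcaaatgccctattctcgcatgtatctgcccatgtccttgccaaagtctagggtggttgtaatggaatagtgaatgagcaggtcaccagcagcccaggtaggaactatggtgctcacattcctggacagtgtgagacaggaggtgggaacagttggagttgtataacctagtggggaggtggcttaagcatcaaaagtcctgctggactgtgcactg
Cyp3a41a, chr5:145720137-145720386, minus strand: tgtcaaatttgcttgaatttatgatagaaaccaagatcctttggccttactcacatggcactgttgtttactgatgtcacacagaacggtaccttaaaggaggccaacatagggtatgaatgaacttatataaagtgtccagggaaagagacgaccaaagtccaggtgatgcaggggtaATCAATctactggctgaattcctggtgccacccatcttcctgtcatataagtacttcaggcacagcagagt
Cyp3a41b, chr5:145584731-145584980, minus strand: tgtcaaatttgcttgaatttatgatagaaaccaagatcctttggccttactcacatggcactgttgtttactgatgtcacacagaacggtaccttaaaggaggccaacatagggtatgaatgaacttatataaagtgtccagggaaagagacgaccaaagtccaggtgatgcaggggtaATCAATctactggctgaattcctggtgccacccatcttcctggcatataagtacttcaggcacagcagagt
Sult3a1, chr10:33857472-33857721, plus strand: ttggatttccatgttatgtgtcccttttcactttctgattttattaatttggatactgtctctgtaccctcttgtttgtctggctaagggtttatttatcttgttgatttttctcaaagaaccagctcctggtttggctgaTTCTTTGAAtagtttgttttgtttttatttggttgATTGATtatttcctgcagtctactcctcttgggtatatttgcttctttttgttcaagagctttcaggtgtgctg
Hamp and Hamp2 were identical in 227 of 253 aligned columns (89.7%), and each held 1 TTCNNNGAA, 97 and 94 bases before the start. The Cyp2b9 and Cyp2b13 promoters were identical in 248 of 250 columns and held neither motif, and those of Cyp3a41a and Cyp3a41b were identical in 249 of 250 and each held 1 ATCAAT, 71 bases before the start. Sult3a1 held both motifs, at 109 and 74 bases. Among 13094 RefSeq promoters of tested autosomal genes (300 bases, from 250 before to 50 after the start) TTCNNNGAA was present in 7.15% and ATTGAT in 4.59%; the shares were 8.55% and 7.48% among 468 promoters of genes called higher in females, 7.75% and 8.56% among 374 of genes called higher in males, and 10.6% and 14.9% among 141 of called genes that differed more than 4-fold. A match describes the sequence and is not a measured binding site.

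Depth was similar in both sexes, with 34659972 to 37309166 reads on genes in AL females and 33648665 to 35150492 in AL males. Correlations of log2 values across the tested genes were 0.946 to 0.979 between AL females, 0.962 to 0.983 between AL males and 0.902 to 0.972 between the sexes. AL female replicate 1 stood apart, because 36 markers of pancreatic acinar cells took 7.46% of its normalised count against 0.00457% to 0.253% in the other AL females and 0.00164% to 0.233% in AL males. None of the 34 acinar markers tested passed the test between the sexes. Hepatocyte markers took 13.9% to 22.9% of the count in AL females and 11.9% to 14.9% in AL males and none of the 12 was called. Because of the acinar transcripts the count over all genes, and each list count that changed, is also given without AL female replicate 1.

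Of 13381 autosomal genes, 879 (6.57%) differed between AL females and AL males by more than 1.5-fold at a Benjamini-Hochberg adjusted p below 0.05 in limma; genes that met both limits are referred to as called. Of these, 493 (3.68%) were higher in females and 386 (2.88%) were higher in males; quantile scaling gave 365 and 383. The log2 difference (females minus males on log2(value + 1), given below with its standard error) had a median of -0.01 over all tested genes, 0.94 over the genes called higher in females and -1.002 over those called higher in males. The differences reached far beyond 1.5-fold in both directions: 226 female-biased and 195 male-biased genes differed more than 2-fold, 82 and 72 more than 4-fold, 26 and 22 more than 16-fold, and 10 and 7 more than 64-fold. In 513 of the called genes (264 higher in females, 249 higher in males) no female library overlapped with any male library, and 937 of all tested genes (7.00%) showed no overlap. By chromosome the share of tested genes called ran from 4.33% on chromosome 2 to 9.29% on chromosome 5. Without AL female replicate 1 the count was 626 (4.68%), of which 594 were also called with it; 312 of the 493 genes higher in females were called both ways, and replicate 1 was the highest AL library in 92 of the rest and in 163 of all 493. Count-based tests on reads recovered from the normalised values gave 808 genes (6.04%) in edgeR and 947 (7.08%) in DESeq2.

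**Figure D1:**
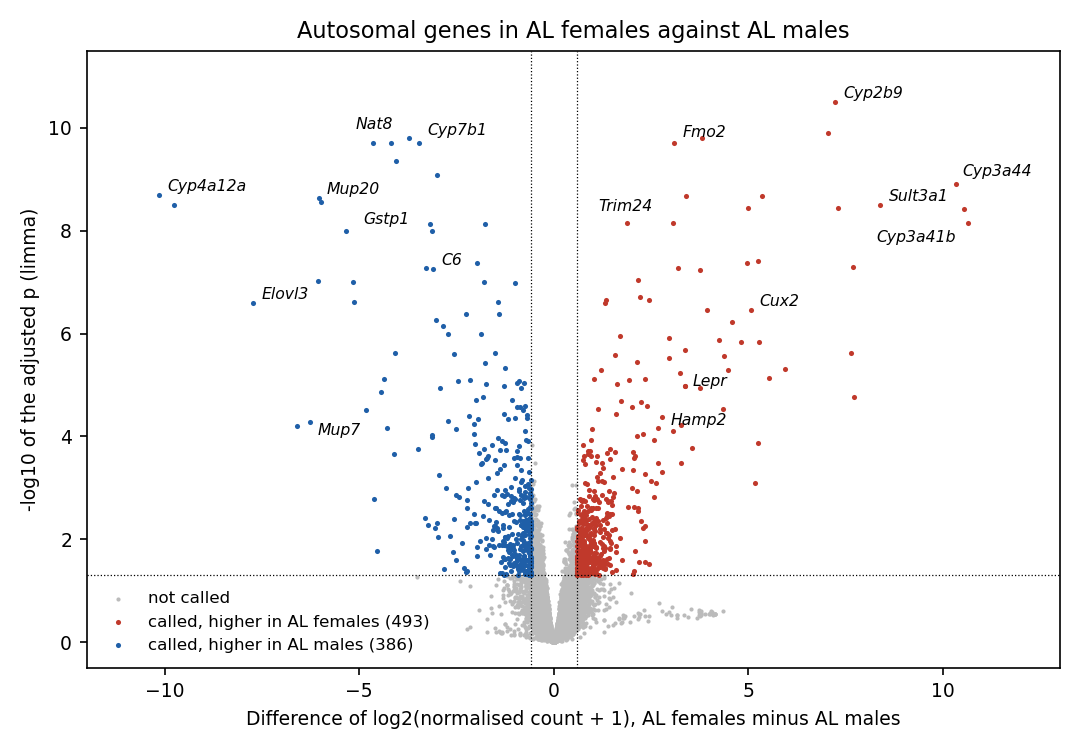
Each point is 1 of 13381 autosomal genes; the x axis is the difference of log2(normalised count + 1), AL females minus AL males, and the y axis is −log10 of the limma adjusted p. The 493 genes called higher in females lie to the right and the 386 called higher in males to the left of the dotted limits, with Cyp3a41b and Cyp4a12a near the far ends.

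Among the hormone receptors, female livers had more transcript of the leptin and prolactin receptors and slightly less of the GH receptor. Lepr, the leptin receptor (chr4:101717137-101815352), stood at 3023, 793, 4872, 1524 and 952 in AL female replicates 1 to 5, the order used throughout, and ranged from 81.6 to 261 with a median of 211 in the 6 AL males (log2 difference 3.36 ± 0.43, adjusted p = 1.04e-05). Prlr, the prolactin receptor, was 4807, 8218, 5843, 6769 and 5816 in females against 1467 to 3109.7 with a median of 1838 in males (log2 difference 1.63 ± 0.21, adjusted p = 9.38e-06). Neither gene overlapped between the sexes. Ghr was 8278, 8749.6, 6825, 9232 and 8595 in females and 9975 to 12751 with a median of 11630.0 in males, which also did not overlap, yet the difference stayed under 1.5-fold (log2 difference -0.47 ± 0.10, adjusted p = 0.00269). Lepr and Prlr were the 2 genes called of a list of 19 for GH and prolactin signalling (6.57% of all genes were called), whose median log2 difference was 0.11.

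Immediate targets of the GH signal overlapped between the sexes and were not called. Socs2, a feedback inhibitor of the receptor, was 416, 659, 1429, 1766 and 442 in females against 136 to 706 with a median of 285 in males (log2 difference 1.48 ± 0.57, adjusted p = 0.0947). Cish, another feedback inhibitor, ranged from 189 to 439 in females, while 5 of the 6 males were lower and AL male replicate 3 was highest of all at 1159 (log2 difference 1.28 ± 0.70, adjusted p = 0.240). Igf1, the circulating effector of GH, ranged from 9883 to 17866 in females and from 10306 to 18001 in males (log2 difference 0.08 ± 0.17, adjusted p = 0.809). Stat5b itself gave a log2 difference of -0.24 ± 0.14, adjusted p = 0.293. Egfr, the receptor for epidermal growth factor, was also not called (-0.33 ± 0.27, adjusted p = 0.436).

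Of 20 transcriptional regulators, 3 were called higher in females and 1 higher in males, with a list median of -0.07 (3 called without AL female replicate 1). Cux2, the homeobox factor known from female liver (chr5:121857962-122050415), had 506, 1531, 1751, 1004 and 435 in AL females and 12.7 to 130.4 with a median of 18.6 in AL males (log2 difference 5.08 ± 0.51, adjusted p = 3.47e-07). Its highest male value came from replicate 4 and was still below the lowest female. Tox, a high mobility group factor (chr4:6686353-6991557), was 769.5, 509, 353, 328 and 505 against 66.3 to 186.4 with a median of 98.1 (log2 difference 2.14 ± 0.25, adjusted p = 3.50e-06); its span holds the gene Gm11802, so reads of both may be mixed. Trim24, a ubiquitin ligase that binds nuclear receptors (chr6:37870811-37968445), varied least among the 3, at 1313, 1577, 1624, 1209.6 and 1030.3 in females and 263 to 445 with a median of 372 in males (log2 difference 1.89 ± 0.15, adjusted p = 7.21e-09). Foxa1, a pioneer factor of liver chromatin, was the 1 regulator called higher in males (log2 difference -0.64 ± 0.21, adjusted p = 0.0477), the groups overlapped, and the call was lost in 15 of 23 alternatives, edgeR (adjusted p = 0.141) and DESeq2 (adjusted p = 0.104) included.

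Bcl6 and Onecut1, which are central to the GH programme, varied widely among males and were not called over all libraries. Bcl6 ranged from 447 to 945 in females and from 387 to 3475 with a median of 1861 in males (log2 difference -1.12 ± 0.51, adjusted p = 0.157), and it was called without AL male replicate 3 (log2 difference -1.51, adjusted p = 0.0485). Onecut1 ranged from 46.9 to 249.9 in females and from 44.1 to 549 with a median of 68.5 in males, where replicate 3 was highest (log2 difference 0.14 ± 0.63, adjusted p = 0.911). Hnf4a, the nuclear receptor that maintains hepatocyte identity, gave a log2 difference of 0.21 ± 0.15, adjusted p = 0.364.

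**Figure D2:**
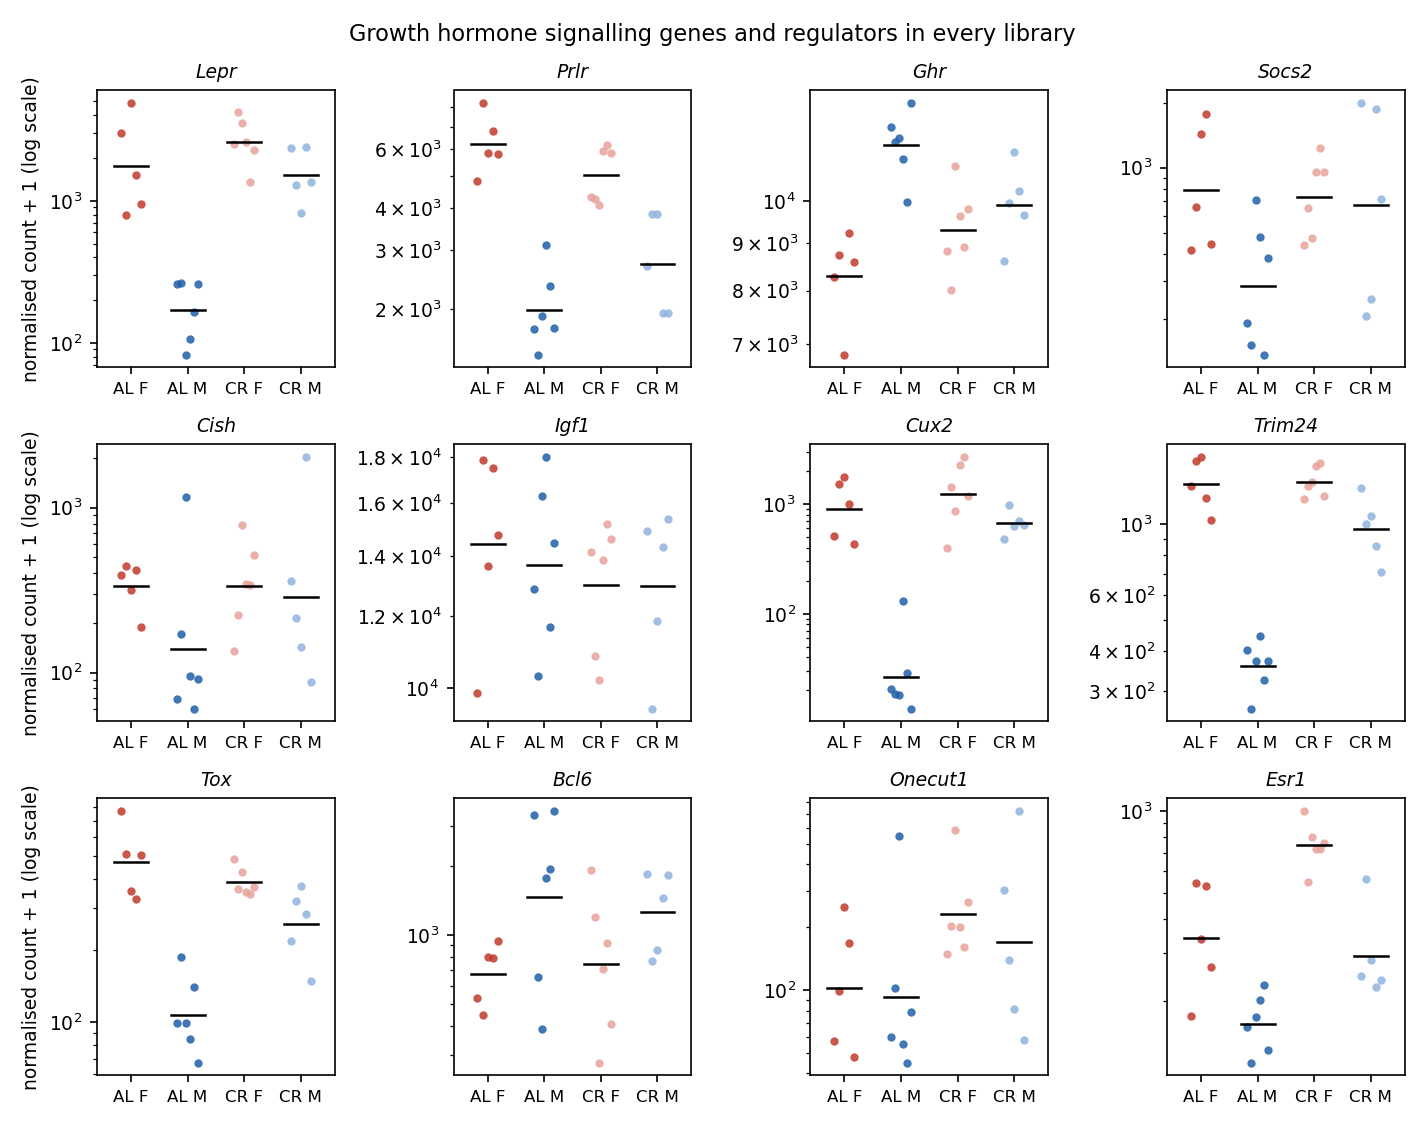
Normalised count + 1 (log scale) of 12 genes in every library; each point is 1 mouse, columns are AL females, AL males, CR females and CR males, and the bar is the geometric mean. Lepr, Prlr, Cux2, Trim24 and Tox were higher in every AL female than in every AL male, whereas Socs2, Cish, Igf1, Bcl6 and Onecut1 overlapped.

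Of the 23 nuclear hormone receptors tested, which sense steroids, bile acids, fatty acids and drugs, 1 was called higher in females and 1 higher in males (list median -0.04), a share near the 6.57% of all tested genes. Esr1, the oestrogen receptor, was 176, 544, 337, 528 and 265 in females and 118 to 228 with a median of 166 in males (log2 difference 1.04 ± 0.27, adjusted p = 0.0135). Its groups overlapped, since female replicate 1 lay within the male range. Nr3c2, the mineralocorticoid receptor, was the other call (log2 difference -0.81 ± 0.24, adjusted p = 0.0310); the groups overlapped and the call was lost in 8 of 23 alternatives, among them leaving out AL female replicate 1 and edgeR. The xenobiotic receptors Nr1i2 (PXR, 0.27 ± 0.12, adjusted p = 0.139) and Nr1i3 (CAR, 0.23 ± 0.17, adjusted p = 0.383) and the fatty acid receptor Ppara (-0.07 ± 0.17, adjusted p = 0.814) were not called.

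Cytochromes P450, the haem enzymes that oxidise steroids, bile acids, fatty acids and drugs, showed the widest sex differences. Of 73 tested, 20 were called higher in females and 10 higher in males (30 of 73, against 6.57% of all genes); in 28 of the 30 the sexes did not overlap, and 29 remained called without AL female replicate 1. The list median was 0.07.

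The Cyp3a family provided the largest female bias. Cyp3a41b (chr5:145558664-145584732) had 6101, 49604, 55265, 12302 and 39894 in AL females and 0.975 to 38.8 with a median of 20 in AL males (log2 difference 10.65 ± 0.84, adjusted p = 7.21e-09). Its copy Cyp3a41a had 6691, 53840.2, 61294, 13686 and 43142 against 1.95 to 46.9 with a median of 23.1 (log2 difference 10.53 ± 0.80, adjusted p = 3.83e-09). The copies cannot be read separately: 90.8% and 88.2% of the 100-base stretches of their transcripts also occur in another gene's transcript, and the promoters printed above differ at 1 position. Cyp3a44 was 1378, 7088, 9441, 3369 and 6177 in females and at most 6.45 in males (log2 difference 10.34 ± 0.72, adjusted p = 1.23e-09), and Cyp3a16 was 38.5, 1879, 4919, 99.95 and 791 in females and at most 2.18 in males (log2 difference 7.72 ± 1.01, adjusted p = 1.73e-05). These 4 genes lie together at chr5:145436309-145805891, and in all of them female replicates 1 and 4 were the lowest of the females.

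A second female group lay at chr7:25897658-26315088, where all 5 tested genes were called higher in females. Cyp2b9, a testosterone and drug hydroxylase, was 14918, 16642, 13974, 11246 and 11284 in females and 35.1 to 185.9 with a median of 116 in males (log2 difference 7.22 ± 0.37, adjusted p = 3.12e-11). Cyp2b13 was 6548, 3342, 1996, 1374 and 3641 against 0 to 105 with a median of 20.3 (log2 difference 7.65 ± 0.88, adjusted p = 2.42e-06), and Cyp2b10, the usual reporter of CAR activation, was 334, 59.2, 90.5, 207 and 122 against at most 7.67 in males (log2 difference 5.26 ± 0.58, adjusted p = 1.45e-06). Cyp2a4, a steroid 15α-hydroxylase, was 9082, 21474, 27274, 14409.7 and 13615 in females and 259 to 658 with a median of 580.4 in males (log2 difference 4.99 ± 0.38, adjusted p = 3.61e-09). The remaining gene, Gm42375, had a log2 difference of 3.26. Females had more of every gene of this group in each library.

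On chromosome 19, 6 Cyp2c genes, whose enzymes oxidise arachidonic acid and drugs, were called higher in females between chr19:39347346-40917947, with log2 differences from 1.29 (Cyp2c37) to 5.36 (Cyp2c69). Of 17 genes of any kind tested in this run, 9 were called. The family members Cyp2c29, Cyp2c50, Cyp2c54, Cyp2c55, Cyp2c67 and Cyp2c70 were tested and not called. Cyp2c38 was 6666, 6195, 5537, 3128 and 5150.4 in females and 479 to 1374 with a median of 1073 in males (log2 difference 2.44 ± 0.24, adjusted p = 2.21e-07), and Cyp2c39 was 370.2, 288, 464, 255 and 373 against 24.4 to 63.3 with a median of 45.5 (log2 difference 2.96 ± 0.32, adjusted p = 1.24e-06). The spans of these last overlap by 73548 bases. The same run held Pdlim1, Entpd1 and Zfp518a, also higher in females; Entpd1 and Zfp518a were not called without AL female replicate 1.

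Male-biased P450s were fewer, and the largest differed about as much as Cyp3a41b in the other direction. Cyp4a12a, an arachidonic acid ω-hydroxylase (chr4:115299046-115332815), was 5.20, 14.3, 8.39, 7.07 and 8.34 in females and 7820.1 to 14636 with a median of 10561 in males (log2 difference -10.14 ± 0.73, adjusted p = 2.04e-09). Cyp4a12b, a near copy that shares 36.2% of its 100-base stretches, was 8.32, 9.54, 5.60, 9.09 and 9.39 against 6153 to 10384 with a median of 7934 (log2 difference -9.75 ± 0.73, adjusted p = 3.18e-09). Cyp2d9, the testosterone 16α-hydroxylase of male mouse liver, retained some transcript in females, at 3552, 2508, 1115, 1144 and 3125 against 35852 to 64411 with a median of 52882 in males (log2 difference -4.65 ± 0.29, adjusted p = 2.00e-10).

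Flavin monooxygenases, which oxidise trimethylamine and amine drugs, had called members that were all higher in females, with a list median of 0.80. Fmo2 was 1866, 1564, 1859, 1688 and 1881 in females and 147 to 270.3 with a median of 218 in males (log2 difference 3.10 ± 0.19, adjusted p = 2.00e-10), with a female spread far narrower than the difference. Fmo1 (0.80 ± 0.13, adjusted p = 3.43e-04) and Fmo4 (0.79 ± 0.22, adjusted p = 0.0237) differed less, also without overlap, and the call of Fmo4 was lost in 3 of 23 alternatives.

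Sulphotransferases, which make steroids and bile acids water soluble, were called in 13 of 16 tested, 11 higher in females and 2 higher in males (list median 2.03; 10 called without AL female replicate 1). Sult3a1 was 340.1, 2483, 2753, 348 and 3179.5 in females and at most 6.87 in males (log2 difference 8.38 ± 0.63, adjusted p = 3.18e-09). Sult3a2, its neighbour, was 10.4, 147, 267.7, 9.09 and 192 in females and 0 in every AL male, which makes it at least 39.6-fold higher in females when 3 reads per library are taken as the floor. In both genes female replicates 1 and 4 were well below the other females.

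The Sult2a cluster at chr7:13623967-14446780 divided by direction, where females had more of 6 of the 7 tested genes and less of the other. Sult2a2 was 646, 108, 456, 61.6 and 501 in females and at most 20.6 in males (log2 difference 5.53 ± 0.68, adjusted p = 7.45e-06). Sult2a1, the dehydroepiandrosterone sulphotransferase, was 362, 107, 486, 28.3 and 403 against at most 23.2 (log2 difference 5.26 ± 0.81, adjusted p = 1.34e-04), and Sult2a5 was 129, 23.9, 98.9, 26.3 and 127 against at most 9.04 (log2 difference 4.36 ± 0.60, adjusted p = 2.96e-05). Sult2a8 went the other way, at 4038, 7484, 5295, 5035 and 5633 in females and 6289 to 19338 with a median of 13937 in males (log2 difference -1.25 ± 0.26, adjusted p = 0.00292). Sult2a1 and Sult2a2 share 11.4% and 34.6% of their 100-base stretches with other transcripts, so their counts are not fully separate. Sult1e1, the oestrogen sulphotransferase, was higher in females at 64.5, 8.59, 15.9, 8.08 and 17.7 against 1.95 to 10.5 with a median of 4.58 (log2 difference 1.60 ± 0.50, adjusted p = 0.0391), but the sexes overlapped and the call was lost without replicate 1.

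The UDP-glucuronosyltransferases, which conjugate bilirubin, steroids and drugs, divided between the sexes, with 4 of 16 higher in females and 3 higher in males (list median -0.14; 6 called without AL female replicate 1). Ugt2b37 was 62.4, 146, 235, 40.4 and 55.3 against 12.7 to 32.7 with a median of 16.5 (log2 difference 2.20 ± 0.64, adjusted p = 0.0278; not called in 5 of 23 alternatives) and Ugt1a5 was called higher in females with overlap (log2 difference 1.43 ± 0.34, adjusted p = 0.00822). Ugt2b1 was 3206, 5073, 4872, 4167 and 4228 in females and 8117 to 13663 with a median of 12506 in males (log2 difference -1.42 ± 0.14, adjusted p = 4.13e-07), and Ugt2b35 was also higher in males (log2 difference -1.28 ± 0.18, adjusted p = 3.73e-05). Ugt2b1, Ugt2b35 and Ugt2b37 are neighbours, so opposite directions occurred within 1 cluster. Ugt1a5 shares 63.1% of its 100-base stretches with other Ugt1a transcripts, and Ugt1a counts are therefore uncertain.

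Glutathione S-transferases, which detoxify electrophiles, included 4 of 21 called higher in males and 1 higher in females (list median -0.12; 4 called without AL female replicate 1). Gstp1, the pi-class enzyme (chr19:4035411-4037912), was 10089, 9024, 7786, 12050.1 and 10291 in females and 43043 to 131339 with a median of 95970.5 in males (log2 difference -3.17 ± 0.25, adjusted p = 7.43e-09). Gstp2 followed at log2 difference -3.12 ± 0.25, adjusted p = 1.01e-08, although 52.8% of Gstp1 and 63.5% of Gstp2 stretches are shared. Gsta3 was higher in males with overlap (log2 difference -0.72 ± 0.16, adjusted p = 0.00417) and Gstt3 was higher in females without it (log2 difference 0.91 ± 0.22, adjusted p = 0.00938).

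Of 13 carboxylesterases, which hydrolyse esters and triglyceride, 2 were called higher in females and 3 higher in males (list median -0.40). Ces3a, a lipid droplet-associated triglyceride hydrolase, was 22477, 33821, 19386, 24593 and 30360.2 in females and 41208 to 73986 with a median of 67921 in males (log2 difference -1.30 ± 0.29, adjusted p = 0.00527). Ces2c (-1.88 ± 0.46, adjusted p = 0.0108) and Ces1e (-0.61 ± 0.14, adjusted p = 0.00641) were also higher in males, but the call of Ces2c was lost in edgeR (adjusted p = 0.130) and DESeq2 (adjusted p = 0.102) and that of Ces1e in 4 of 23 alternatives. Ces1b was 2056, 2059.5, 1942, 2897 and 2079 in females against 729.6 to 1598 with a median of 1064 in males (log2 difference 1.08 ± 0.22, adjusted p = 0.00247).

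Major urinary proteins, lipocalins secreted by the liver that bind pheromones, were called higher in males in 14 of 22 tested and higher in females in none. The list median was -2.12, the lowest of the 23 lists, and 13 of the 14 did not overlap. Mup20, or darcin (chr4:62011337-62054143), was 3022, 3281, 2168, 3820.5 and 4384 in females and 153692 to 242027 with a median of 231616 in males (log2 difference -6.04 ± 0.44, adjusted p = 2.29e-09). Mup7 was 1260.4, 3609, 7732, 276 and 4476 against 69197 to 317999 with a median of 182355 (log2 difference -6.27 ± 0.90, adjusted p = 5.33e-05) and Mup21 was 485, 487, 161, 641 and 624 against 6202 to 17321 with a median of 8154 (log2 difference -4.37 ± 0.54, adjusted p = 7.72e-06). Females varied widely for Mup7 and Mup15, with replicate 4 lowest and replicate 3 highest in both. Mup15 and Mup7 share 97.3% and 81.6% of their 100-base stretches with other Mup transcripts, against 38.8% for Mup20, so single Mup counts are uncertain. The number of members called was 9 without AL female replicate 1, 8 in edgeR and 10 in DESeq2.

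The serpins, secreted protease inhibitors, had 4 of 29 members called higher in females and 3 higher in males, but 2 remained without AL female replicate 1. Those were Serpina12, known as vaspin, at 69.7, 287, 172, 67.6 and 356 in females and 452 to 2060.1 with a median of 1329 in males (log2 difference -2.94 ± 0.51, adjusted p = 5.54e-04), and Serpine2, at 173, 205, 74.6, 120.1 and 139.7 against 506 to 1062 with a median of 752 (log2 difference -2.47 ± 0.31, adjusted p = 8.18e-06). Serpinb1a (1.37 ± 0.38, adjusted p = 0.0237) and Serpina1e (-1.17 ± 0.33, adjusted p = 0.0232) overlapped between the sexes and were each not called in 6 of 23 alternatives. Both Serpina12 and Serpine2 were lower in every female than in every male.

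Within 42 complement and acute phase genes, 4 were called higher in males, 1 was called higher in females, and the list median was -0.00. Over all tested genes 6.57% were called. The 4 were all components of the membrane attack complex, the pore that complement inserts into target membranes. Hc and C8g, whose products also enter this complex, were on the list and were not called. C6 (chr15:4727067-4804045) was 603, 779.7, 789, 893 and 662 in females and 4613 to 8669.6 with a median of 6302 in males (log2 difference -3.11 ± 0.28, adjusted p = 5.58e-08). C8a was 3134, 6341, 2696, 8044 and 5408 against 13651 to 17178 with a median of 15745 (log2 difference -1.73 ± 0.42, adjusted p = 0.00938); its span holds the transcript 1700024P16Rik. C8b (-1.34 ± 0.34, adjusted p = 0.0127) and C9 (-1.06 ± 0.21, adjusted p = 0.00191) differed less, and in none of the 4 did the sexes overlap. All 5 calls of the list held without AL female replicate 1.

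Transporters of organic anions and cations, which move bile acids, steroids and drugs across the hepatocyte membrane, were called in 8 of 28, with 4 in each direction and no overlap in any (list median -0.13). Slc22a26 (chr19:7780094-7802667) was 1981, 3653, 2919, 3158 and 2652 in females and 7.80 to 41.2 with a median of 24.3 in males (log2 difference 7.05 ± 0.40, adjusted p = 1.27e-10). Its neighbour Slc22a27 was 714, 395, 656, 394 and 564 against 2.93 to 22.6 with a median of 17.5 (log2 difference 5.24 ± 0.46, adjusted p = 3.82e-08). The Slco1a pair ran in opposite directions: Slco1a4 was 4165, 2413, 2812, 4555 and 4335 in females and 599 to 1323 with a median of 765 in males (log2 difference 2.17 ± 0.20, adjusted p = 8.96e-08). Slco1a1 was 609.4, 1943, 1587, 1801 and 1796 in females and 5286 to 8446 with a median of 6818 in males (log2 difference -2.23 ± 0.50, adjusted p = 0.00582); it overlaps Gm30843.

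Steroid hormone enzymes were called in 11 of 31, 4 higher in females and 7 higher in males (list median -0.25; 10 called without AL female replicate 1). Hsd3b5, a 3-ketosteroid reductase of male liver (chr3:98618636-98645534), was 2.08, 116, 157, 101 and 164 in females and 3514 to 9093 with a median of 5834 in males (log2 difference -6.60 ± 0.96, adjusted p = 6.18e-05), and Hsd3b4 was at most 3.13 in females against 48.9 to 118 with a median of 65.2 in males (log2 difference -4.82 ± 0.66, adjusted p = 3.08e-05). All 100-base stretches of Hsd3b4 also occur in transcripts of Gm10681, so the Hsd3b4 count cannot be read as its own. Cyp17a1, the 17α-hydroxylase and lyase of androgen synthesis (chr19:46667165-46673000), was 9629, 9088, 15045, 6671 and 10208 in females and 607 to 1728 with a median of 952 in males (log2 difference 3.40 ± 0.25, adjusted p = 2.14e-09). Akr1c18, a 20α-hydroxysteroid dehydrogenase, was low in both and higher in females with overlap (log2 difference 2.34 ± 0.52, adjusted p = 0.00556). The Hsd3b genes lie at chr3:98499071-98895376, where 5 were higher in males and the adjoining Hao2 was higher in females.

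In bile acid synthesis and transport, 6 of 34 genes were called, 3 in each direction, and in all 6 the sexes did not overlap (list median -0.13). Cyp7b1, the oxysterol 7α-hydroxylase of the alternative pathway (chr3:18071944-18243890), was 288, 659, 541, 289 and 459.9 in females and 3213 to 6017 with a median of 4907 in males (log2 difference -3.45 ± 0.22, adjusted p = 2.00e-10). Cyp39a1, which hydroxylates 24-hydroxycholesterol, was 1479, 1632, 1823, 1455 and 2301 in females against 295.6 to 1296 with a median of 647 in males (log2 difference 1.35 ± 0.29, adjusted p = 0.00394). The classical pathway was not called: Cyp7a1, its rate-limiting enzyme, gave a log2 difference of 0.56 ± 0.63, adjusted p = 0.596 and Cyp8b1, which forms cholic acid, gave -0.38 ± 0.46, adjusted p = 0.628. Both overlapped widely between the sexes.

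Of all tested genes 6.57% were called, 3.68% higher in females. Fatty acid and triglyceride synthesis had 1 of 34 called (list median -0.03): Elovl3, the elongase of very long-chain fatty acids (chr19:46131897-46135694), at 142, 60.1, 126, 1.01 and 78.2 in females and 4344 to 16513 with a median of 11306 in males (log2 difference -7.72 ± 0.77, adjusted p = 2.57e-07). Scd1, the stearoyl-CoA desaturase, ranged from 112298 to 491194 in females and from 112869 to 371269 in males (log2 difference 0.07 ± 0.37, adjusted p = 0.920). Fatty acid oxidation and ketogenesis had 5 of 39 called, all higher in females, with a list median of -0.01. Hao2, a peroxisomal hydroxyacid oxidase, was 149, 115, 120.3, 189.8 and 112 in females and at most 9.81 in males (log2 difference 4.81 ± 0.53, adjusted p = 1.44e-06). Abcd2, a peroxisomal transporter of very long-chain acyl-CoA, was 1187, 1908, 1403, 1775 and 1047 against 192 to 472 with a median of 313 (log2 difference 2.21 ± 0.21, adjusted p = 1.96e-07), and the acyl-CoA thioesterases Acot3 (2.08 ± 0.34, adjusted p = 2.36e-04) and Acot5 (2.04 ± 0.32, adjusted p = 1.99e-04) were higher as well. The fifth was Acot4, not among the genes to be described by rule and named after its value was seen (0.77).

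Of 40 genes of lipid uptake, droplets and lipoproteins, 2 were called, both uptake receptors higher in females (list median -0.11). Over all tested genes the share called was 6.57%. Vldlr, the very low-density lipoprotein receptor, was 603, 221, 267, 250.4 and 254 in females and 37.4 to 109.9 with a median of 76.7 in males (log2 difference 2.05 ± 0.35, adjusted p = 4.53e-04). Cd36, the fatty acid translocase, was 3627, 1116, 2576, 1343 and 1309 against 347 to 1105 with a median of 697 (log2 difference 1.45 ± 0.36, adjusted p = 0.0108). In each gene female replicate 1 was highest, and both calls held without it. Sphingolipid metabolism had 1 of 29 called (list median -0.07): Cers6, a ceramide synthase that prefers palmitoyl-CoA (chr2:68861145-69114284), was 947, 583, 749.8, 452 and 594 in females and 156 to 255 with a median of 191 in males (log2 difference 1.69 ± 0.18, adjusted p = 1.10e-06). Cers2, which makes very long-chain ceramides, gave -0.26 ± 0.10, adjusted p = 0.0952, and Sptlc2, a subunit of the enzyme that starts the pathway, gave 0.03 ± 0.10, adjusted p = 0.875.

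Among 52 genes of glucose metabolism, covering gluconeogenesis, glycolysis, glycogen and the TCA cycle, the call was Got1, the cytosolic aspartate aminotransferase of the malate-aspartate shuttle, at 17343, 10543, 18427, 21182 and 15173 in females and 4512 to 7884 with a median of 5317 in males (log2 difference 1.52 ± 0.29, adjusted p = 0.00152). The list median was -0.05; 16 of the 52 had an unadjusted p below 0.05 and edgeR and DESeq2 called 2 and 3. No gene of cholesterol synthesis (0 of 24; 1 at an unadjusted p below 0.05; 0 in edgeR and 0 in DESeq2) or of the circadian clock (0 of 22; 3 at an unadjusted p below 0.05; 0 in edgeR and 0 in DESeq2) was called. The list medians were -0.17 and -0.06.

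Iron handling contrasted 2 adjoining hepcidin genes, Hamp2 and Hamp. Of these, Hamp encodes the liver hormone that closes the iron exporter ferroportin. Hamp2 (chr7:30922372-30924181) was 16531, 11037, 7496, 11333 and 15696 in females and 1111 to 3578 with a median of 1432 in males (log2 difference 2.78 ± 0.39, adjusted p = 4.13e-05) and was the 1 call among 29 iron genes (list median 0.04). Hamp (chr7:30942368-30944029) was 22976, 19751, 16179, 11589.7 and 17039 in females and 5936 to 34052 with a median of 19092 in males (log2 difference 0.04 ± 0.57, adjusted p = 0.971), with the females inside the male range. The promoters printed above are 89.7% identical and each carries TTCTTGGAA.

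**Figure D3:**
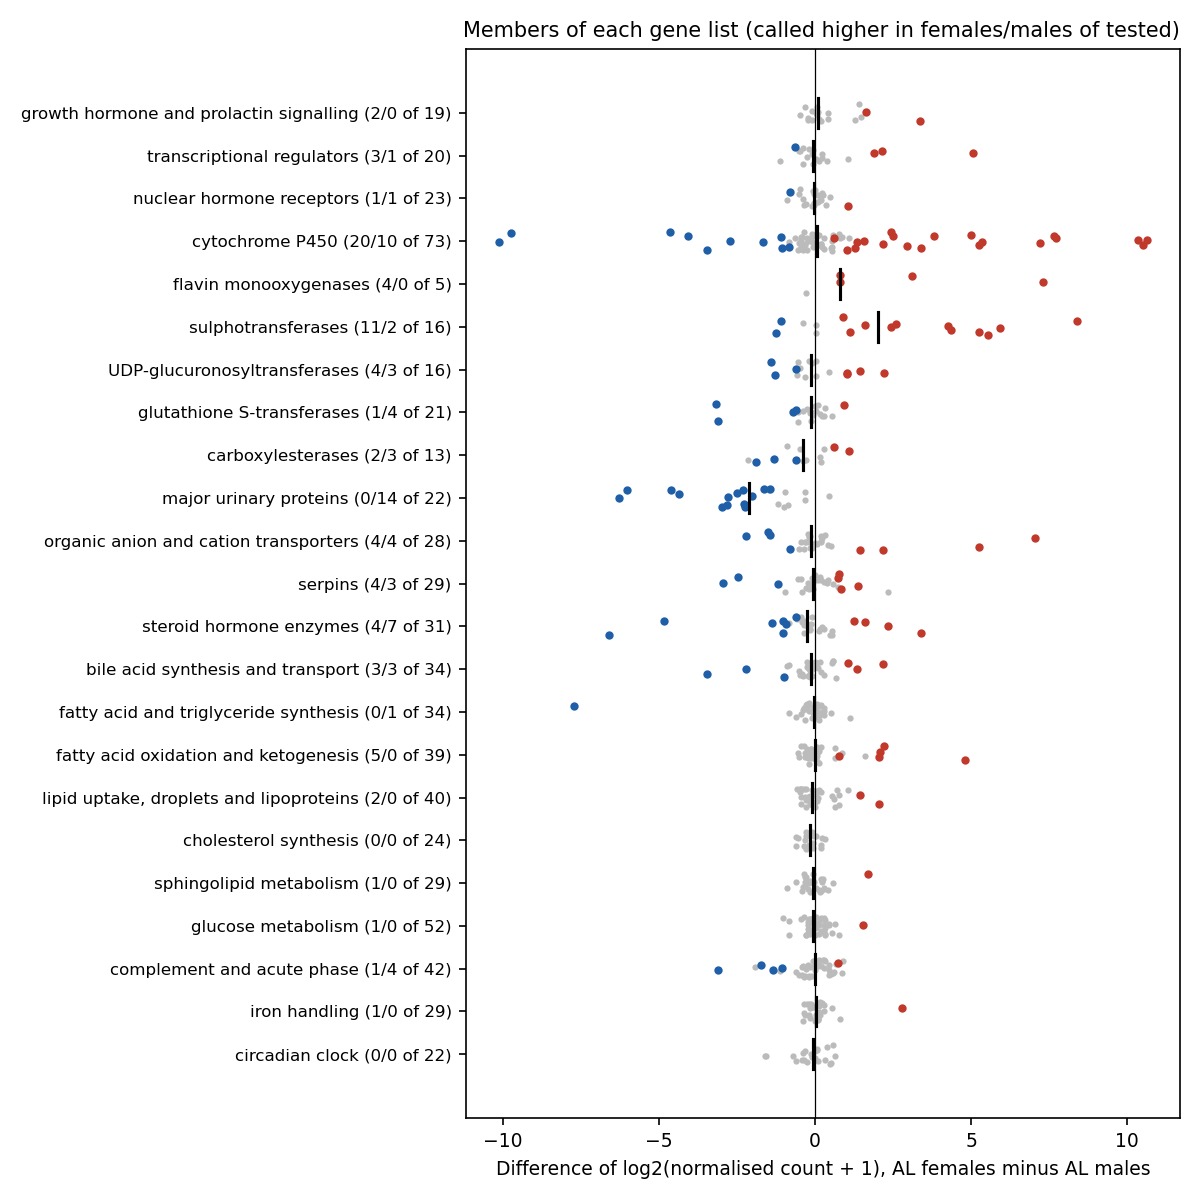
Each point is 1 tested gene of 23 lists; the x axis is the difference of log2(normalised count + 1), AL females minus AL males, coloured points are called (red higher in females, blue higher in males), grey points are not, and the black bar is the list median. Numbers beside each name give those called higher in females and in males of those tested. Cytochromes P450 spread to both sides, major urinary proteins lie to the male side and sulphotransferases to the female side.

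Outside the lists, the largest differences included genes of other or unknown function. A1bg, a secreted immunoglobulin-domain glycoprotein (chr15:60917589-60921270), was 156, 4116, 1244, 1455 and 745 in females and at most 10.9 in males (log2 difference 7.70 ± 0.69, adjusted p = 5.16e-08). The predicted genes Gm4956 (-4.19 ± 0.26, adjusted p = 2.00e-10) and Gm35696 (-4.07 ± 0.46, adjusted p = 2.36e-06) were higher in males. Pitx3, a homeobox gene known from lens and midbrain (chr19:46135281-46148325), was at most 3.13 in females and 50.003 to 326 with a median of 209 in males (log2 difference -6.05 ± 0.56, adjusted p = 9.69e-08). Its span overlaps Elovl3 by 414 bases, and its value was 1.06% to 2.63% of that of Elovl3 in the AL males, so reads of both may be mixed.

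Neighbouring called genes were grouped by position. With a gap of at most 500 kb between the starts of successive called genes, 37 runs of 4 or more held 198 of the 879 called genes (22.5%); 14 runs were higher in females throughout, 4 were higher in males throughout and 19 held both directions. Whether this is more than gene density alone gives was not tested, and some runs were no denser in calls than the table, such as that from Hcn2 to Tjp3, where 5 of 74 tested genes were called against 6.57% of all. One run, at chr6:85817218-85909315, held 4 N-acetyltransferases of the Nat8 family and Gm38847, and all 5 tested genes were higher in males. Nat8f5 was at most 1.87 in females and 60.8 to 120.4 with a median of 74.0 in males (log2 difference -5.99 ± 0.44, adjusted p = 2.80e-09), and Nat8 averaged 19.8 ± 5.06 (SD, n = 5) in females and 277 ± 90.6 (SD, n = 6) in males (log2 difference -3.71 ± 0.22, adjusted p = 1.54e-10). Carbonic anhydrases on chromosome 3 ran in opposite directions within 1 run: Car1 (-1.30 ± 0.32, adjusted p = 0.0109) and Car3 (-1.28 ± 0.32, adjusted p = 0.0130) were higher in males and Car2 (0.93 ± 0.15, adjusted p = 1.92e-04) was higher in females.

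Several runs that were higher in females throughout held genes of immune cells or of the interferon response. They were picked out after their values were seen, with no fixed list, and also held other genes, such as Sds, Pcp4l1 and Arhgap30. Other runs held immune genes in both directions or beside genes higher in males, among them those from Nlrx1 to Cd3e, Cd163 to Plekhg6, Fitm1 to Gzmb, Cd300a to Slc16a5, Cyp21a1 to H2-Q1 and Ifi27l2b to Serpina3g, and are not described here. One run, chr1:173566280-174031755, held the interferon-inducible Ifi200 family, and all 8 genes tested there were called with log2 differences of 0.72 to 1.19. Pydc4 was 74.9, 79.2, 92.3, 55.5 and 58.4 in females and 11.6 to 64.7 with a median of 31.9 in males (log2 difference 1.19 ± 0.27, adjusted p = 0.00630), and Ifi205 was 155, 106, 155, 114 and 98.0 against 34.9 to 104 with a median of 60.0 (log2 difference 1.06 ± 0.31, adjusted p = 0.0303). In 6 of the 8, these included, the sexes overlapped. Without AL female replicate 1, Pydc4, Pyhin1, Ifi204 and Ifi203 were still called and the other 4 were not.

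The Ms4a run at chr19:11443558-11604804, membrane proteins of leukocytes, had 5 of 5 genes higher in females, 4 of them without replicate 1, and Ms4a6d was 128, 77.3, 77.4, 75.7 and 78.2 in females against 25.8 to 57.9 with a median of 42.5 in males (log2 difference 1.03 ± 0.20, adjusted p = 0.00163). Schlafen and chemokine genes at chr11:82951349-83593087 had 6 of 13 called (5 without replicate 1); Ccl6 was 799, 467, 543, 414 and 459.9 in females and 222 to 308 with a median of 259.7 in males (log2 difference 0.99 ± 0.22, adjusted p = 0.00488), with no overlap. In the run from Sds to Oas1a, 4 of 13 tested genes were called, 1 of them without overlap. There the 2′-5′ oligoadenylate synthetases Oas2, Oas1g and Oas1a, antiviral enzymes, were called with and without replicate 1 at log2 differences of 1.04, 0.72 and 0.70. These 2 Oas1 genes share 40.9% (Oas1a) and 38.2% (Oas1g) of their 100-base stretches with other transcripts. At chr7:3289038-4243690, which holds leukocyte immunoglobulin-like receptors beside Myadm, 7 of 22 genes were called (4 without replicate 1). At chr5:104935057-105139586 the transporter gene Abcg3 and 3 guanylate-binding proteins were all called, and without replicate 1 the call held for Abcg3 (0.79 ± 0.20, adjusted p = 0.0119) and not for Gbp8, Gbp9 or Gbp4. In the run from Fcgr3 to Cd48, 5 of 27 tested genes were called and none of the 5 calls held without replicate 1. Over these 7 runs the log2 differences of called genes lay between 0.59 and 1.45.

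**Figure D4:**
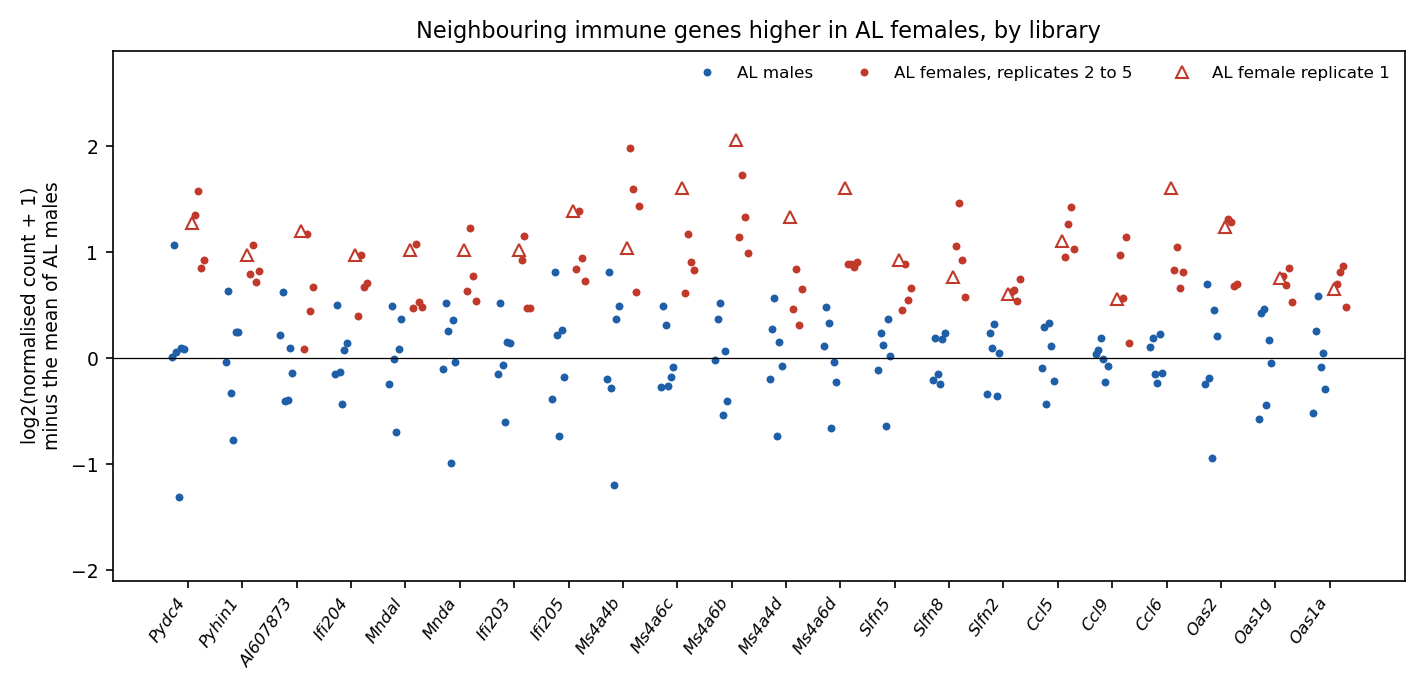
Log2(normalised count + 1) minus the AL male mean for the called genes of 4 of these runs, without Sds; each point is 1 mouse, with AL males in blue, AL females in red and AL female replicate 1 as an open triangle. Female points lie mostly above the males, with overlap in most genes of the Ifi200 run.

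Transcripts of immune cells were also summed over marker lists. In whole liver, more cells of a type and more RNA per cell cannot be told apart. Kupffer cell and macrophage markers summed to 20239 to 26838 normalised counts in AL females and 13106 to 22399 in AL males (two-sided exact permutation test over all divisions of the 11 libraries into 5 and 6, p = 0.00866, adjusted over 14 lists p = 0.0952), and 2 of 11 tested were called, both higher in females (1 without replicate 1). These sums overlapped; as shares of the total count, which were not tested, they were 0.0551% to 0.0701% and 0.0388% to 0.0508% and did not overlap. Of 6 T and NK cell markers tested, 5 were called, 4 of them higher in females (3 of the 6 without replicate 1), at sums of 171.0 to 246.4 in females and 110.2 to 207.8 in males (adjusted p = 0.0952 by the same exact test). Markers of other cell types had the same adjusted p of 0.0952, with higher means in females for sinusoidal endothelial, stellate and proliferating cells and higher means in males for adipocytes and cholangiocytes. None of the 14 lists passed after adjustment; without AL female replicate 1 the lowest adjusted p was 0.133. How far these cell types enter the differences of the immune genes was not tested.

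The CR mice, which share no library with the AL mice, gave a second measurement of the same sex difference. Between CR females and CR males 280 genes (2.09%) were called, 178 (1.33%) higher in females and 102 (0.762%) higher in males. Quantile scaling gave 114 and 126, and leaving out single CR libraries gave totals of 167 to 439. Of the 879 genes called in AL mice, 821 had the same sign in CR mice and 185 were called there in the same direction, which is 21.05% of the AL calls and 66.1% of the CR calls. The median CR log2 difference was 0.54 over the AL genes higher in females and -0.46 over those higher in males. Of the 48 genes that differed more than 16-fold in AL mice, 34 were called in CR mice in the same direction. Mup-ps8, a pseudogene whose 100-base stretches all occur in other Mup transcripts, was the 1 gene called in opposite directions (AL -2.78, CR 1.96, CR adjusted p = 0.0362).

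A scale was set with the AL male mean at 0% and the AL female mean at 100% over the genes called in AL mice. CR females lay at 87.3% to 104% for the genes higher in AL females and at 88.1% to 109% for those higher in AL males, within the span of the AL females (85.5% to 115% and 82.6% to 113%). CR males lay at 25.5% to 48.2% and at 31.3% to 61.6%, above every AL male for the genes higher in AL males (highest AL male 17.0%) and overlapping with AL male replicate 2 (25.6%) for the genes higher in AL females. The AL values both chose these genes and set this scale, so the AL positions are fixed in part in advance. The CR positions rest on the same choice of genes, and how far that choice moves them from the AL positions was not tested.

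The difference between the sex differences was tested directly, and 32 genes (0.239%) passed, all of which were among the 879 called in AL mice (17 higher in females, 15 higher in males). With the replicate number as a block 18 passed, 17 of them among the 32, and DESeq2 called 80, with 30 of the 32. Cyp2b9 changed most: CR females ranged from 9212 to 13047 with a median of 11020.1 and CR males held 6249, 12427, 10408, 8726 and 2727, so that the sex difference was 0.60 in CR against 7.22 in AL (difference 6.62 ± 0.53, adjusted p = 2.20e-07). Cyp2b13, with a promoter identical in 248 of 250 columns, had a sex difference of 5.74 in CR mice (adjusted p = 3.00e-04; difference 1.91, adjusted p = 0.936). Whether Cyp2b9 and Cyp2b13 differ from each other in this was not tested. Fmo2 ranged from 2307 to 3286 with a median of 2988 in CR females and was 2480.4, 2332, 2391, 2025 and 933 in CR males (difference 2.51 ± 0.27, adjusted p = 3.58e-05).

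Regulators were among the genes whose sex difference was smaller in CR mice. Cux2 ranged from 399 to 2680.0 with a median of 1304 in CR females and was 483, 987, 632, 694 and 641 in CR males, a sex difference of 0.88 against 5.08 in AL mice (difference 4.19 ± 0.73, adjusted p = 0.00779). Trim24 had a sex difference of 1.89 in AL and 0.49 in CR (difference 1.40 ± 0.21, adjusted p = 0.00288). Of the transporters and enzymes, Slc22a26, Slc22a27, Slco1a4, Cyp17a1, Cyp2c38 and Cers6 also passed, with differences of 1.24 to 3.17, each in the direction of a larger female excess in AL mice. Pitx3 passed on the male side (difference -5.51, adjusted p = 0.00192), subject to the overlap with Elovl3, whose own difference did not pass (-4.84, adjusted p = 0.0622).

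Of the 7 called Sult2a genes, Sult2a2, Sult2a3 and Sult2a5 passed with a larger female excess in CR mice. Sult2a2 ranged from 854 to 2901 with a median of 2475 in CR females and was 1.95, 0, 0, 0 and 2.03 in CR males, a sex difference of 10.23 against 5.53 in AL (difference -4.70 ± 0.96, adjusted p = 0.0327). The difference was -4.28 for Sult2a5 (adjusted p = 0.0232) and -5.11 for Sult2a3, named after its value was seen (adjusted p = 0.0246). Sult2a1 (-5.08, adjusted p = 0.0633) and Sult2a8, the 1 higher in AL males (-0.73, adjusted p = 0.831), did not pass, and neither did Sult2a4 or Sult2a6. Cyp3a41b, at the top of the AL ranking, differed by 10.32 in CR against 10.65 in AL (difference 0.33 ± 1.19, adjusted p = 0.994).

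**Figure D5:**
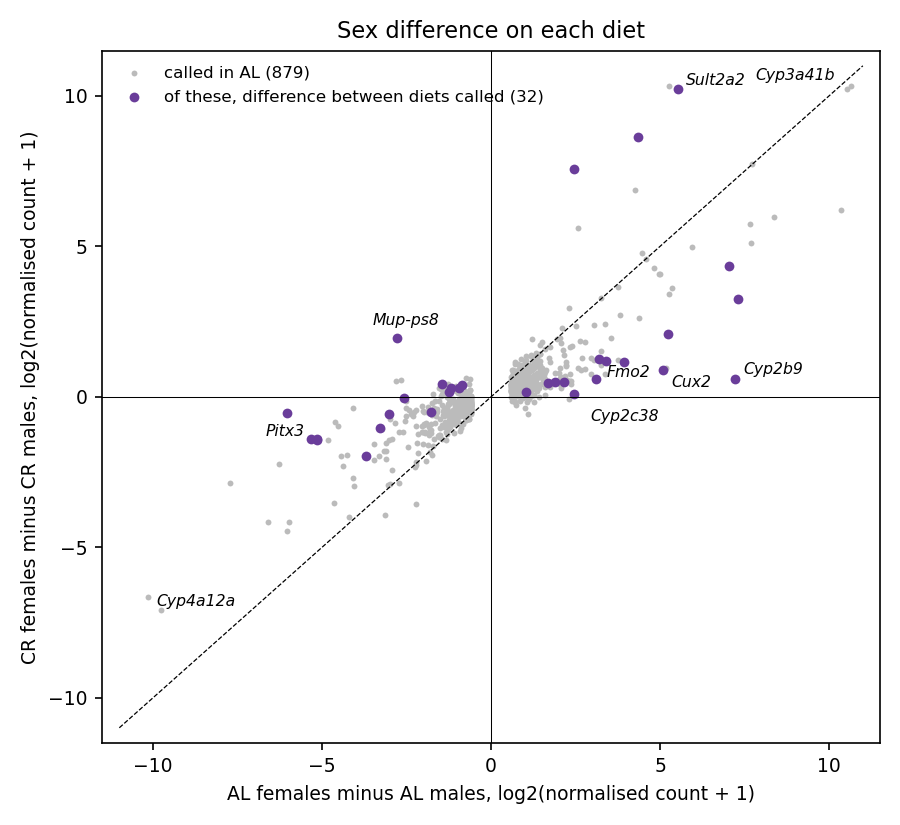
Each point is 1 of the 879 genes called in AL mice; the x axis is the log2 difference AL females minus AL males and the y axis the same for CR mice. Purple points are the 32 genes whose sex difference differed between the diets; Cyp2b9 and Cux2 lie far from 0 on the x axis and near it on the y axis, whereas Cyp3a41b and Cyp4a12a lie far from 0 on both.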

How the data were processed

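Liver RNA-seq libraries of 22 mice were analysed, 1 per mouse, with groups and replicate numbers from the labels. Per the labels and the study's methods, reads were trimmed with Trim Galore, checked with FastQC, aligned to mm10 with STAR (2.7.10a), counted per gene with featureCounts (Subread 1.5.2) and divided by DESeq2 (1.36.0) size factors. The deposited signal is this normalised count; the authors removed chromosome Y genes, Xist, duplicated rows and genes with few reads. Strandedness and annotation version are not given in the sources used here, so reads of overlapping genes may be mixed: 190 of the 879 called genes overlap another gene of the table. Of 826 called genes with a GENCODE M21 transcript, 69 share over 10% of their 100-base stretches with another gene.

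Genes were placed with the RefSeq table of GRCm38.p6 (15744 by symbol, 565 by synonym). Log2(value + 1) of 14035 genes with a mean of at least 10 was fitted with limma (3.58.1, R 4.3.3), with 1 mean per group over all libraries, a variance trend and Benjamini-Hochberg adjustment over all genes; fold changes on this scale understate those of low genes. X-linked genes (36 of 393 called, 34 higher in females) and 248 genes without a chromosome (15 called) entered the fit but not the printed counts. Whole reads (within 0.01 of a whole number) of 21 libraries were used for edgeR (4.0.16) and DESeq2 (1.42.0); AL female replicate 4, where 1 read is worth 1.01, so near 1 that whole reads and values are hard to tell apart, was left out. Other alternatives were pseudocounts of 0.25 and 5, a minimum mean of 50 or none, TMM and quantile scaling, no minimum fold change, the compared groups alone, the acinar share as covariate, the replicate number as a block and leaving out each library. Tested on simulated data (14035 genes, 200 changed between AL females and AL males), limma recovered 72% of 2-fold and 94% of 4-fold changes, with 2.92% of calls false. The simulation drew each gene independently and held no library with excess acinar transcripts, so its share of false calls need not hold for these data. Reads on genes ran from 33648665 to 37309166 per library; p-values measure the spread between mice.

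Named were the 12 largest non-overlapping called changes in each direction with a mean of at least 100 in the higher group, up to 4 called members of each list, key regulators and enzymes, the genes of runs, and the 5 genes with the smallest interaction p; a few of these are not reported here. The members and lists were chosen with earlier results of these data known.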

Additional observations from a re-analysis of the deposited data

Results flagged for a closer look

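Each of 91 named genes was examined in each AL group for a library apart from the rest (Dixon's test). Genes named only through a run, such as Ms4a6d, were left out. The test flagged 15 combinations of a gene and a group (8.24%), where chance flags about 1 in 20. Among AL females these were replicate 1 for Hsd3b5 (2.08), Slco1a1 (609.4) and Vldlr (603), replicate 2 for Ces1e (1715), replicate 3 for Cyp4a12b (5.596), Mup21 (161) and Ppara (10172), replicate 4 for Elovl3 (1.01) and Ces1b (2897), and replicate 5 for Gstt3 (3321), all as normalised counts. Among AL males these were replicate 3 for Cish (1159) and Onecut1 (549), replicate 4 for Cux2 (130.4), and replicate 5 for Ces3a (41208) and Slco1a4 (1323).

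The sex difference differed between AL and CR mice by the interaction test in 12 of the named genes outside the runs. It was more positive in AL mice for Cyp2b9 (log2 difference of 6.62), Cux2 (4.19), Slc22a27 (3.17), Slc22a26 (2.72), Fmo2 (2.51), Cyp2c38 (2.36), Cyp17a1 (2.20), Slco1a4 (1.69), Trim24 (1.40) and Cers6 (1.24). It was more negative in AL mice for Pitx3 (-5.51) and Sult2a2 (-4.70).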

How the results depend on the processing

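The count of called genes in AL mice stayed within 1.5 times of 879 under every alternative other than no minimum fold change, which gave 1541 (705 higher in females and 836 higher in males), and ran from 626 (without AL female replicate 1) to 1052 (without AL male replicate 2) when single libraries were left out. For CR mice the count was 468 in DESeq2 and 440 without a minimum fold change (48.4% higher in females, against 63.6%), and 167 (without CR male replicate 5) to 439 (without CR male replicate 2) when single libraries were left out; quantile scaling gave 114 higher in females and 126 higher in males. The interaction count was 18 with the replicate block and 80 in DESeq2, and 24 to 45 when single libraries were left out; a pseudocount of 5 gave 15 positive and 29 negative, one of 0.25 gave 14 and 12. Same-numbered libraries did not pair (correlations of deviations 0.134, 0.197, -0.225, 0.205 and 0.326; 2 of 5 correlated best with their own number), and the block gave 831 calls in AL mice and 215 in CR mice. Of 2089 values for 91 named genes under an alternative, 2017 kept direction and call, 49 lost the call and 2 gained it. Of 73 called genes among the 91, 65 were called in every alternative and Foxa1, Nr3c2, Fmo4, Ugt2b37, Ces2c, Ces1e, Serpinb1a and Serpina1e were not. Genes named only through a run, or after their value was seen, were not among the 91. Several genes of runs lost the call without AL female replicate 1, as given above. The 21 values that changed direction were all of genes that were not called. With the acinar share as covariate these were Onecut1 (-0.070), Ppara (0.033), Hamp (-0.18) and Sptlc2 (-0.027); with the replicate block Hamp (-0.028); and in edgeR and DESeq2 Onecut1 (-0.37 and -0.38). With single libraries left out Igf1 ran from -0.0066 to 0.21, Onecut1 from -0.18 to 0.65, Hamp from -0.25 to 0.25, Sptlc2 from -0.040 to 0.063 and Scd1 from -0.22 to 0.31. The causes were not tested.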

Other observations

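The AL females differed among themselves in several of the genes with the largest female excess. Sult3a1 was 340 and 348 in AL female replicates 1 and 4 and 2483 to 3180 in the other females, and Sult3a2 was 10.4 and 9.09 against 147 to 267.7. Cyp3a16 was 38.5 and 99.95 in the same libraries and 791 to 4919 in the others. A1bg was lowest in replicate 1 alone, at 156 against 745 to 4116 in the rest. All of these values remained above every AL male. AL male replicate 2 was nearest to the females over the genes higher in females, at 25.6% of the way from the AL male mean to the AL female mean, whereas over the genes higher in males AL male replicate 5 was nearest, at 17.0%.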
